A study of Homo sapiens with 16 samples.

Results

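The cell cycle cyclins of the A, B, D, E and F families were read in SAOS cells, a human osteosarcoma line in which RB, the retinoblastoma protein, is not functional. They were taken as every probe set of the expression array whose only gene symbol in the platform annotation was CCNA1, CCNA2, CCNB1, CCNB2, CCND1, CCND2, CCND3, CCNE1, CCNE2 or CCNF. This gave 22 probe sets of 10 genes, out of 54613 probe sets tested and 19775 genes named by them. Its question was how extra SMYD2, an enzyme that methylates lysines, bears on RB restored to such cells. There were 4 groups of 4 arrays, with the replicate numbers 1, 3, 4 and 5 in each: cells given human RB1 and mouse SMYD2 together by transient transfection, cells given human RB1 alone, cells given mouse SMYD2 alone, and untransfected control cells, which the labels call wild type. The labels name no empty-vector arm, so a transfected group set against control also differs from it by the transfection. How many cells took up a construct is not stated in the labels. They also do not say whether replicates were separate cultures, and the p-values therefore cover the spread between these samples alone, which may be technical.

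Cyclins are the regulatory subunits of cyclin-dependent kinases (CDKs). The D cyclins act in G1 with CDK4 and CDK6 and start the phosphorylation of RB, which otherwise holds the E2F transcription factors inactive. The E cyclins act with CDK2 at entry into S phase, cyclin A2 with CDK2 and CDK1 in S phase and G2, and the B cyclins with CDK1 in mitosis. Cyclin F binds no CDK and is instead the substrate receptor of an SCF ubiquitin ligase. The genes of cyclins E and A2 are E2F targets, and those of cyclins A2, B1 and B2 are repressed in resting cells through promoter elements bound by the DREAM and MuvB complexes.

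Values are log2 signals of a probe set, so a difference of 1 is a 2-fold difference, and signals of different probe sets cannot be ranked against each other. Differences are given with their standard error from limma, a linear model fitted to all probe sets, and a probe set was called at an adjusted p under 0.05 over the 54613. RB1 read 7.90 to 9.62 with RB plus SMYD2 and 7.40 to 8.10 with RB, against 6.59 to 6.98 with SMYD2 and 6.24 to 6.93 in control, in the brighter of its 2 probe sets. It rose by 2.19 ± 0.31 with RB plus SMYD2 against control (limma adjusted p = 0.000398), and its difference of 1.22 ± 0.31 with RB was called only with the replicate number as a block (limma adjusted p = 0.0721, and 0.00665 with the block). In its dimmer set all 16 arrays lay between 3.33 and 3.58. The brightest SMYD2 probe set read 10.16 to 10.20 with RB plus SMYD2, 9.86 to 10.19 with RB, 10.19 to 10.36 with SMYD2 and 10.12 to 10.23 in control, and human probes need not bind the mouse transcript, so it does not check that label. The 5 measured osteoblast markers, RUNX2, SP7, ALPL, COL1A1 and SPARC, stood at the 91.8th percentile or higher of all probe sets, and 4 of 10 markers of other cell types were above the median of all probe sets. EPCAM, an epithelial marker, was the highest of these, with group means of 9.33 to 9.45, and PTPRC, which marks blood cells, stood at the 8.86th percentile. The array numbered 1 of the SMYD2 group stood apart. Its ACTB probe set at the 3' end exceeded that at the 5' end by 3.53 (log2), while the remaining 15 arrays gave 0.54 to 2.46. Such a difference can reflect how intact the RNA was. For GAPDH the same difference was only 0.16 on this array and -0.006 to 0.104 on the others. Several results that rest on SMYD2 array 1 are therefore also given without it.

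Cyclins A2, B1, B2, E2 and F fell with RB plus SMYD2, cyclin D3 fell less, and no cyclin set was called higher in the fit without the block. Against control, 8 of the 22 probe sets were lower and 0 higher, and against SMYD2 alone 7 were lower and 0 higher. Over the whole array 3.54% of probe sets were called in the first of these comparisons, 2.12% as lower and 1.41% as higher, and 3.51% in the second, 2.13% as lower and 1.38% as higher. Against control the calls covered CCND3, CCNE2, CCNA2, CCNB1, CCNB2 and CCNF, 6 of the 10 genes by their brightest probe set. With RB alone against control, where 1.08% of all probe sets were called, 0.665% as lower and 0.417% as higher, 3 of 22 were lower and 0 higher, those of CCNE2, CCNA2 and CCNF. The median difference of the 22 sets was -0.18 with RB plus SMYD2 against control, -0.29 against SMYD2 and -0.12 with RB against control, and that of all probe sets was 0.01, 0.002 and -0.001. With the replicate number as a block in the fit, 11 sets were called with RB plus SMYD2 against control, 9 against SMYD2 and 6 with RB against control, and of all probe sets 7.01%, 7.36% and 3.31% were. Sets whose groups did not overlap and were lower numbered 8, 6 and 7 in these 3 comparisons, against 5.76%, 4.85% and 3.72% of all probe sets. Sets lower in 4 of 4 same-numbered pairs numbered 11, 8 and 10, against 14.0%, 12.5% and 11.5% of all. The comparisons share groups and are not independent of each other. Because RNA was measured in bulk, fewer cells in a cell cycle phase and less transcript per cell cannot be told apart.

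**Figure D1:**
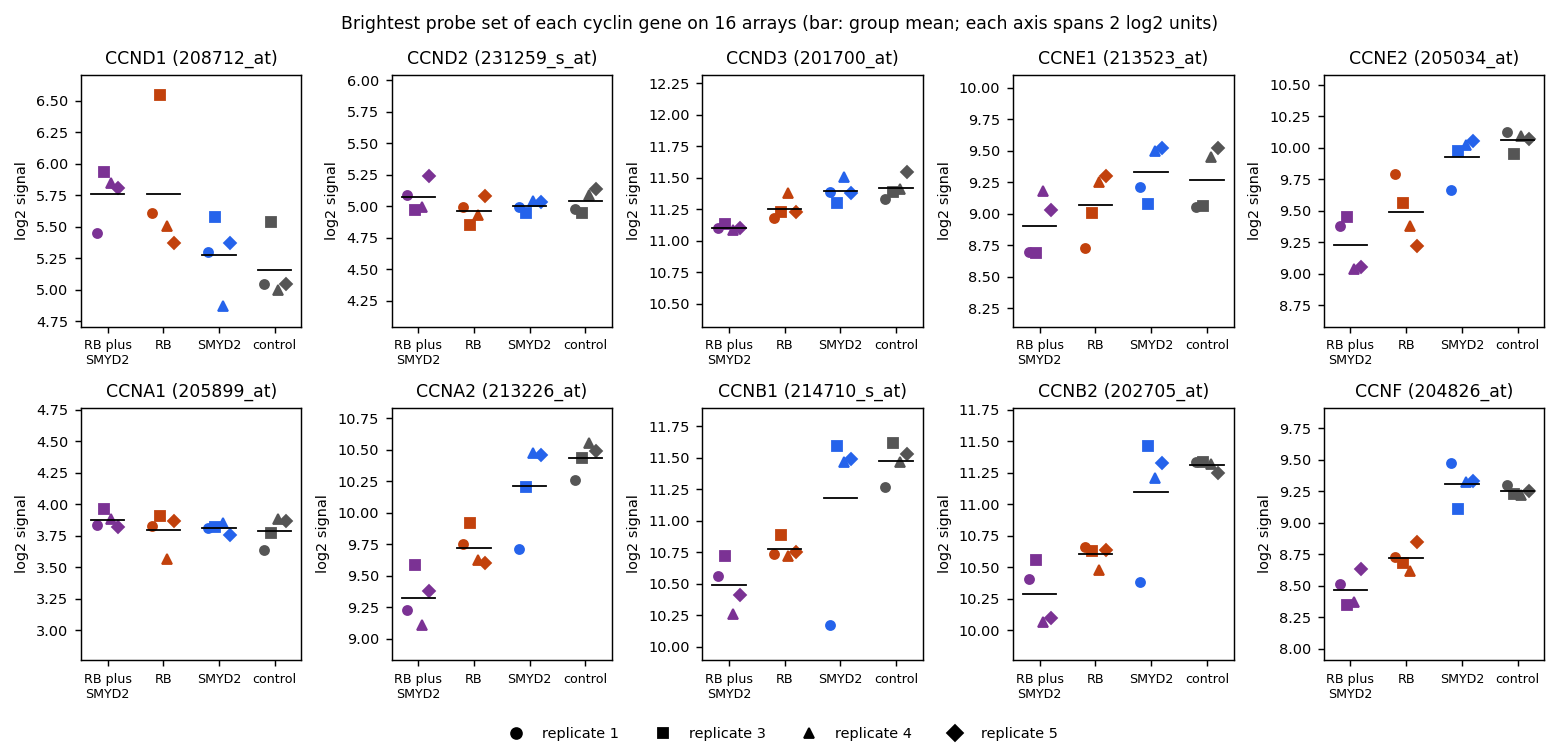
Log2 signal of the brightest probe set of each of the 10 cyclin genes on 16 arrays, by group from RB plus SMYD2 to control, with 1 symbol per replicate number and a bar at the group mean. CCNA2, CCNB2 and CCNF lie lower with RB and lowest with RB plus SMYD2, CCND1 has about the same mean with RB plus SMYD2 and with RB, above those with SMYD2 and in control, CCNA1 and CCND2 differ little, and SMYD2 array 1 lies far below its group for CCNB1 and CCNB2.

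The 22 probe sets divided by brightness. Of these, 12 had a mean above the median signal of all probe sets and 10 lay below it. The deposited values carry no detection calls, and whether a dim set measures transcript or background cannot be said. In the fit without the block all calls were among the 12 brighter sets, which had a median difference of -0.86 with RB plus SMYD2 against control, with 11 of 12 below 0. Among the 10 dimmer sets the median was 0.07 and the differences ran from -0.04 to 0.60. CCNA1 and CCND2 had only dim sets, and so did CCND1.

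Among the D cyclins, the 3 genes did not move together. CCND3 fell slightly, CCND1 had positive differences that were called only in some alternative fits, and CCND2 stayed dim. CCND3, the cyclin D3 gene, had 11.10, 11.13, 11.09 and 11.10 in its bright probe set with RB plus SMYD2 on arrays 1, 3, 4 and 5. It had 11.18, 11.23, 11.38 and 11.23 with RB, 11.39, 11.30, 11.51 and 11.38 with SMYD2, and 11.33, 11.39, 11.41 and 11.55 in control. The arrays with both constructs lay below every array of the other 3 groups. CCND3 fell by 0.32 ± 0.07 (1.24-fold) with RB plus SMYD2 against control (limma adjusted p = 0.0134) and by 0.29 ± 0.07 against SMYD2 (limma adjusted p = 0.0237). With RB against control it differed by -0.16 ± 0.07 (limma adjusted p = 0.399). The first call was lost without control array 5 (limma adjusted p = 0.0646). The second was lost in 4 of 16 cases with 1 array left out, namely RB plus SMYD2 arrays 1, 4 and 5 and SMYD2 array 4 (limma adjusted p up to 0.0788). The other CCND3 probe set was dim and had the opposite sign, with 5.28, 5.31, 5.27 and 5.37 with RB plus SMYD2 and 5.04, 5.18, 5.07 and 5.07 in control. Its groups did not overlap, as was true of 5.33% of all probe sets in the higher direction, but its difference of 0.22 ± 0.08 was not called (limma adjusted p = 0.193).

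CCND1 encodes cyclin D1, which cells without RB are known to keep at a low level. Its brighter probe set read 5.45, 5.94, 5.85 and 5.81 with RB plus SMYD2, 5.61, 6.55, 5.51 and 5.37 with RB, 5.30, 5.58, 4.87 and 5.37 with SMYD2 and 5.05, 5.54, 5.00 and 5.05 in control. Within every replicate number the arrays with RB read higher than control, although the groups overlapped. Array 3 was the highest of each group. The difference was 0.60 ± 0.21 both with RB plus SMYD2 and with RB, each against control (limma adjusted p = 0.164 and 0.265). With the replicate number as a block both were called (limma adjusted p = 0.0176 and 0.0322). The first was also called without the block when RB array 3 was left out (limma adjusted p = 0.0356), with 2 groups in the fit (0.0311) and with array weights (0.0314). The difference of RB against control was 0.34 without that array and 0.73 without control array 3. The second probe set, close to it in signal, differed by 0.25 ± 0.12 with RB plus SMYD2 and 0.09 ± 0.12 with RB against control, and passed in neither fit (limma adjusted p = 0.363 and 0.898). CCND2, the cyclin D2 gene, had 4 probe sets, all between the 13.6th and 39.4th percentile of the array, with signals of 3.81 to 5.24 over all arrays. None was called in any comparison, and the 4 differed by 0.03 to 0.13 with RB plus SMYD2 against control.

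Of the E cyclins, CCNE2 fell and CCNE1 did so only in the fit with the block. CCNE2, the cyclin E2 gene, had 9.38, 9.45, 9.04 and 9.05 with RB plus SMYD2 in its brighter probe set. It had 9.79, 9.56, 9.38 and 9.22 with RB, 9.66, 9.97, 10.02 and 10.05 with SMYD2, and 10.12, 9.95, 10.09 and 10.07 in control. All 8 arrays with RB lay below all 4 control arrays. CCNE2 fell by 0.83 ± 0.13 (1.78-fold) with RB plus SMYD2 against control (limma adjusted p = 0.000863), by 0.69 ± 0.13 against SMYD2 (limma adjusted p = 0.00424) and by 0.57 ± 0.13 with RB against control (limma adjusted p = 0.0363). The first 2 calls held with each of the 16 arrays left out. That of RB against control was lost in 7 cases, without any 1 of the 4 control arrays or without RB array 3, 4 or 5 (limma adjusted p up to 0.144). The second CCNE2 probe set was dimmer and far more variable, with 8.07 on SMYD2 array 4 and its lowest signal of all 16 arrays on SMYD2 array 1. It differed by -0.89 ± 0.43 with RB plus SMYD2 against control and was not called (limma adjusted p = 0.363, and 0.103 with the block).

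CCNE1, the cyclin E1 gene, had 8.70, 8.69, 9.18 and 9.03 with RB plus SMYD2, 8.73, 9.01, 9.25 and 9.30 with RB, 9.21, 9.08, 9.50 and 9.52 with SMYD2 and 9.05, 9.06, 9.45 and 9.52 in control. In each group arrays 4 and 5 read higher than array 3, and the groups overlapped. With RB plus SMYD2 it was lower than with SMYD2 in 4 of 4 same-numbered pairs, by 0.43 ± 0.16 in the fit without the block (limma adjusted p = 0.186). With the block that difference was called (limma adjusted p = 0.00215), as was the difference of -0.37 ± 0.16 from control (limma adjusted p = 0.288, and 0.00614 with the block). The difference of RB against control, -0.20 ± 0.16, was called in neither fit (limma adjusted p = 0.777, and 0.221 with the block). The second CCNE1 probe set was dim, at 4.52 to 5.14, and differed by 0.002 ± 0.11 with RB plus SMYD2 against control.

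Cyclin A2 had the largest decrease among the 10 genes with RB plus SMYD2 against control. CCNA2 read 9.23, 9.58, 9.11 and 9.38 with RB plus SMYD2 in its brighter probe set and 9.75, 9.92, 9.62 and 9.60 with RB. It read 9.71, 10.20, 10.47 and 10.46 with SMYD2 and 10.26, 10.43, 10.55 and 10.49 in control. The groups with both constructs, with RB and in control formed 3 ranges that did not touch, and SMYD2 array 1 fell within that of RB. CCNA2 fell by 1.11 ± 0.15 (2.15-fold) with RB plus SMYD2 against control (limma adjusted p = 0.000207), by 0.88 ± 0.15 against SMYD2 (limma adjusted p = 0.00190) and by 0.71 ± 0.15 with RB against control (limma adjusted p = 0.0228). The last call was lost without control array 3, 4 or 5 or RB array 4 or 5 (limma adjusted p up to 0.0965). The second CCNA2 probe set had nearly the same differences, -1.09 ± 0.35 with RB plus SMYD2 and -0.71 ± 0.35 with RB against control, with a larger error. It was called in the first of these with the block (limma adjusted p = 0.0109) and not without it (limma adjusted p = 0.114). Between RB plus SMYD2 and SMYD2 this second set differed by -0.78 ± 0.35 (limma adjusted p = 0.301). Without SMYD2 array 1 that difference was -1.23 and was called (limma adjusted p = 0.00693). In that set the arrays numbered 1 read lowest with SMYD2 (8.18 against 9.45 to 10.28) and in control (8.95 against 10.01 to 10.22). Without the 4 arrays numbered 1, an alternative chosen after seeing the data, it differed by -1.35 with RB plus SMYD2 and -0.92 with RB against control and was called in both (limma adjusted p = 0.000359 and 0.0117). CCNA1, the cyclin A1 gene, which is used mainly in germ cells, read 3.57 to 3.96 on all arrays and differed by 0.09 ± 0.07 with RB plus SMYD2 against control (limma adjusted p = 0.670).

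The B cyclins, which activate CDK1 in mitosis, fell by about as much as cyclin A2 with both constructs. CCNB1 was lower in both of its probe sets. The brighter read 10.56, 10.72, 10.26 and 10.41 with RB plus SMYD2, 10.74, 10.89, 10.72 and 10.75 with RB, 10.17, 11.59, 11.47 and 11.49 with SMYD2 and 11.27, 11.62, 11.47 and 11.53 in control. With RB, alone or with SMYD2, no array reached the range of control. CCNB1 fell by 0.99 ± 0.22 (1.98-fold) with RB plus SMYD2 against control in this set (limma adjusted p = 0.0163), a call lost without control array 3 or 5 or RB plus SMYD2 array 4 or 5 (limma adjusted p up to 0.0686). With RB against control the difference was -0.70 ± 0.22 (limma adjusted p = 0.185). Against SMYD2, RB plus SMYD2 differed by -0.69 ± 0.22 (limma adjusted p = 0.107, and 0.0309 with the block). Both were called without SMYD2 array 1, at -0.70 for RB against control (limma adjusted p = 0.000794) and -1.03 for RB plus SMYD2 against SMYD2 (limma adjusted p = 1.32e-05). That array enters the first comparison only through the shared estimate of the spread.

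The other CCNB1 probe set read 9.11, 9.35, 9.00 and 9.23 with RB plus SMYD2, 9.50, 9.82, 9.46 and 9.47 with RB, 9.60, 9.86, 10.25 and 10.27 with SMYD2 and 9.98, 10.13, 10.23 and 10.17 in control. Here too all arrays with RB lay below control, and those with both constructs lay below all others. The set fell by 0.96 ± 0.14 against control (limma adjusted p = 0.000424) and by 0.82 ± 0.14 against SMYD2 (limma adjusted p = 0.00187), both with each array left out in turn. RB against control differed by -0.56 ± 0.14 (limma adjusted p = 0.0600) and was called with the block (limma adjusted p = 0.0169).

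CCNB2, the cyclin B2 gene, read 10.41, 10.56, 10.07 and 10.10 with RB plus SMYD2 in its bright probe set. It read 10.66, 10.63, 10.48 and 10.64 with RB, 10.38, 11.46, 11.21 and 11.33 with SMYD2, and 11.34, 11.34, 11.32 and 11.25 in control. The control arrays lay within 0.1 of each other and at least 0.5 above every array with RB. CCNB2 fell by 1.03 ± 0.17 (2.04-fold) with RB plus SMYD2 against control (limma adjusted p = 0.00184) and by 0.81 ± 0.17 against SMYD2 (limma adjusted p = 0.0112). The second call was lost without RB plus SMYD2 array 4 or 5 (limma adjusted p up to 0.0536) and was at -1.05 without SMYD2 array 1 (limma adjusted p = 1.49e-05). With RB against control the difference of -0.71 ± 0.17 missed the threshold (limma adjusted p = 0.0584), and it passed with the block (0.0213), without SMYD2 array 1 (0.000905) and with 1 probe set per gene (0.0330), all limma adjusted p. The other 2 CCNB2 probe sets read 5.36 to 6.32 and 4.33 to 4.68 and were called in no comparison.

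CCNF, the gene of the SCF receptor cyclin F, was called in its brighter probe set in every comparison of a group with RB against one without it. It read 8.51, 8.35, 8.37 and 8.63 with RB plus SMYD2, 8.73, 8.68, 8.62 and 8.85 with RB, 9.47, 9.11, 9.32 and 9.33 with SMYD2 and 9.30, 9.23, 9.22 and 9.25 in control. All 8 arrays with RB lay below all 8 without it, SMYD2 array 1 included, which was the highest of the 16. CCNF fell by 0.79 ± 0.09 (1.73-fold) with RB plus SMYD2 against control (limma adjusted p = 6.27e-05), by 0.84 ± 0.09 against SMYD2 (limma adjusted p = 3.36e-05) and by 0.53 ± 0.09 with RB against control (limma adjusted p = 0.00780). These 3 calls held with each of the 16 arrays left out. RB against SMYD2, both transfected, gave -0.59 ± 0.09 (limma adjusted p = 0.00359), the only 1 of 22 probe sets called in that comparison, in which 1.23% of all probe sets were called. With only these 2 groups in the fit it was not called (limma adjusted p = 0.0784). Without SMYD2 array 1, RB against SMYD2 called 6 of the 22 sets, all lower, and 947 of all 54613 probe sets. The 6 were CCNF at -0.53, the brighter and dimmer CCNB1 sets at -0.74 and -0.56, and 3 others. These were CCNB2 at -0.73, CCNA2 at -0.66 and CCNE2 at -0.52 in their brightest sets (limma adjusted p up to 0.0407 over the 6). The second CCNF probe set was not called with RB against control, at -0.43 ± 0.17 (limma adjusted p = 0.346, and 0.249 with the block). That set fell by 0.68 ± 0.17 with RB plus SMYD2 against control (limma adjusted p = 0.0346) and by 0.69 ± 0.17 against SMYD2 (limma adjusted p = 0.0313). Its first call was lost in 5 of 16 cases with 1 array left out, control arrays 3 and 5 and RB plus SMYD2 arrays 3, 4 and 5, and its second in 4, SMYD2 arrays 4 and 5 and RB plus SMYD2 arrays 3 and 5 (limma adjusted p up to 0.138 and 0.130). With only RB plus SMYD2 and SMYD2 in the fit, the calls of CCND3, CCNB2 and this CCNF set against SMYD2 were lost (limma adjusted p = 0.114, 0.118 and 0.116).

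**Figure D2:**
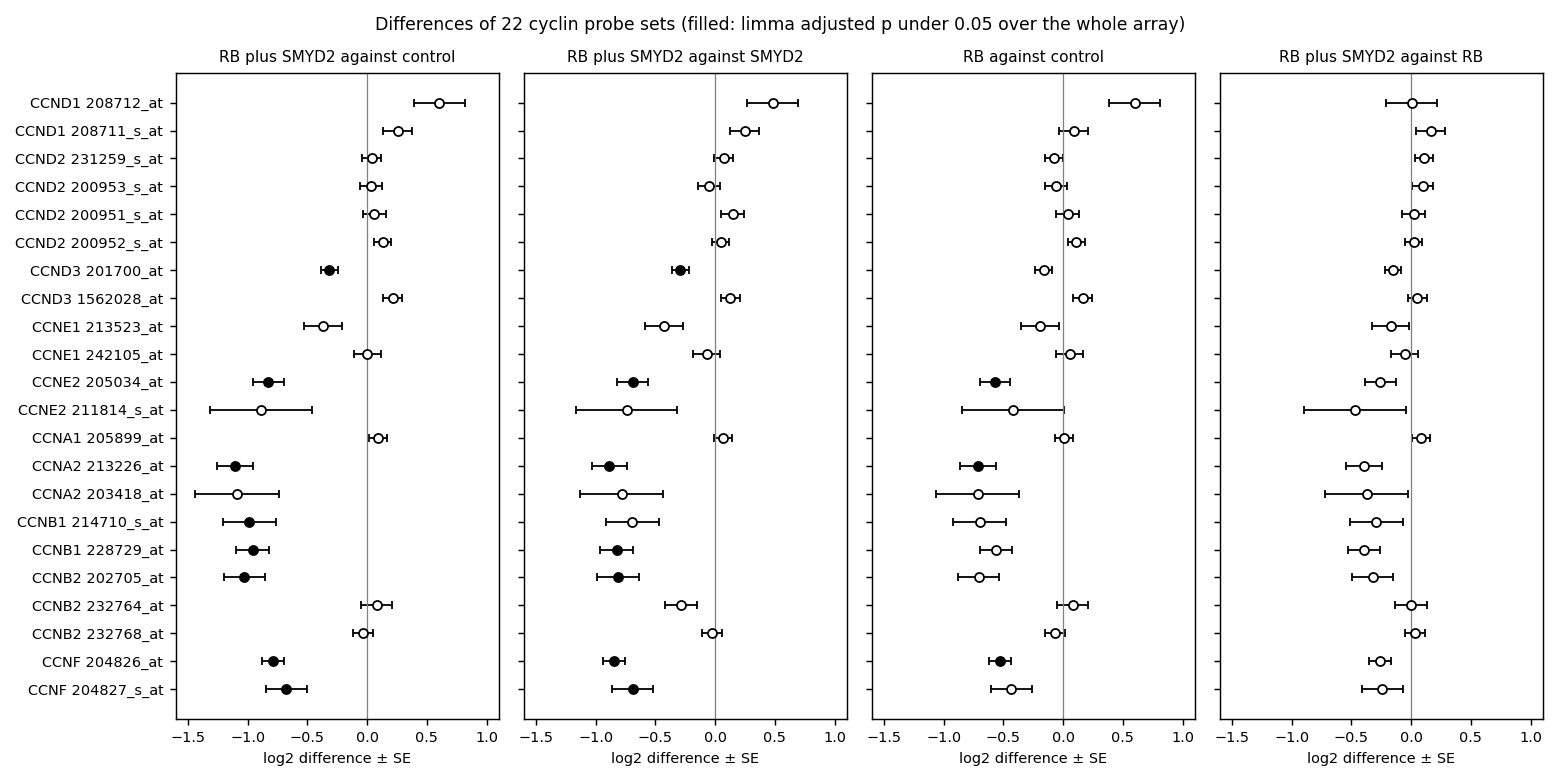
Log2 differences with their standard errors for the 22 cyclin probe sets in 4 comparisons, ordered from D cyclins to cyclin F, with filled points where the limma adjusted p was under 0.05. The filled points number 8 with RB plus SMYD2 against control, 7 against SMYD2, 3 with RB against control and 0 with RB plus SMYD2 against RB, and all lie below 0.

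The stretches before the start sites of CCNA2, CCNB1, CCNB2 and CCNF are shown because these 4 genes fell and because the mitotic promoters are known to carry paired elements, the CCAAT box bound by NF-Y and the CHR element bound by MuvB. CCNE2 and, by less, CCND3 fell too and are not shown, and for CCNE2 no window was available. The stretches shown are from RefSeq (build GRCh38.p14), 130 bases up to the base before the annotated start, 5′ to 3′ on the gene's strand. Capitals mark CCAAT and the CHR words TTTGAA and CTTGAA, on either strand, so that ATTGG is a CCAAT box on the other strand.
CCNA2, chr4:121823884-121824013, minus strand: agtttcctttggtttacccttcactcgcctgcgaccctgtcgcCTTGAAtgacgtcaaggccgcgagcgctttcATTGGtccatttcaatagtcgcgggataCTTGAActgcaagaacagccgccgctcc
CCNB1, chr5:69167020-69167149, plus strand: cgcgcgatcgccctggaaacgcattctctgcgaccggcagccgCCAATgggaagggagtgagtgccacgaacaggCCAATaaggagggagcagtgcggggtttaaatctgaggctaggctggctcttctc
CCNB2, chr15:59105016-59105145, plus strand: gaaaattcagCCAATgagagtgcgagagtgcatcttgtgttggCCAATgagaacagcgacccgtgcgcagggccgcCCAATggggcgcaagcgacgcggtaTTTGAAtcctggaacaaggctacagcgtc
CCNF, chr16:2429317-2429446, plus strand: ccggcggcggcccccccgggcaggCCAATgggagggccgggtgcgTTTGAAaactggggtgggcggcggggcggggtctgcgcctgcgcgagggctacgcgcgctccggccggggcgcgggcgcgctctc
The words were counted in windows of 300 bases, from 250 before to 50 after the start. CCNB2 held 4 CCAAT words and 1 CHR word, CCNF 4 and 1, CCNA2 1 and 2, and CCNB1 2 and 0. Only the CHR words named above were searched, so the 0 of CCNB1 says only that those letters are not there. CCNA1 and CCNE1 held neither word, and of the 3 windows of CCND3 2 held 1 CCAAT word each and none a CHR word. CCNE2, CCND1 and CCND2 were not searched. Of all 35116 windows, 34.6% held CCAAT and 23.9% a CHR word on either strand, so single matches are common. The E2F words TTTCCCGC, TTTCGCGC, TTTGCCGC and TTTGGCGC, present in 3.31% of all windows, were found in 0 of the 9 cyclin windows searched, which says only that these letters are not there.

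RB plus SMYD2 against RB alone compares SMYD2 added to RB with RB by itself. The RB1 signal was also higher with both constructs, with a mean of 8.67 against 7.70 with RB in its brighter probe set. None of the 22 cyclin probe sets was called (limma adjusted p of at least 0.9998 for each, and at least 0.722 with the block). Over the whole array 1 probe set was called, 0.00183%, and 2121 had an unadjusted p under 0.05. The brighter sets had negative differences here. Of the 12 brighter sets, 12 were below 0, with a median of -0.27, and 10 were lower in 4 of 4 same-numbered pairs. That is 10 of all 22 sets, while 7.94% of all probe sets, bright and dim together, were lower in 4 of 4 pairs. None of the 10 dimmer sets was lower in all 4 pairs, and their median was 0.04.

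CCNA2 differed by -0.52, -0.34, -0.51 and -0.21 within replicate numbers 1, 3, 4 and 5, and by -0.39 ± 0.15 in all. The dimmer CCNB1 set differed by -0.40, -0.48, -0.46 and -0.24 within numbers. CCND3 differed by -0.09, -0.10, -0.28 and -0.13. These 3 sets had groups with no overlap (two-sided exact permutation test, p = 0.0286 in all 3 cases, which is the lower limit with 4 arrays a group and is not adjusted for the 22 sets), while 1.56% of all probe sets were lower without overlap. For CCNF the differences were -0.22, -0.34, -0.25 and -0.22, and for CCNE2 they were -0.41, -0.11, -0.34 and -0.17. Both were lower in every pair, with overlapping groups (exact two-sided permutation p = 0.0571 and 0.171). CCND1, at 0.004 ± 0.21, was higher in 2 of 4 pairs. RB1 itself differed by 0.97 ± 0.31 with RB plus SMYD2 against RB, which was not called (limma adjusted p = 0.9998), and its part in these differences was not tested.

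**Figure D3:**
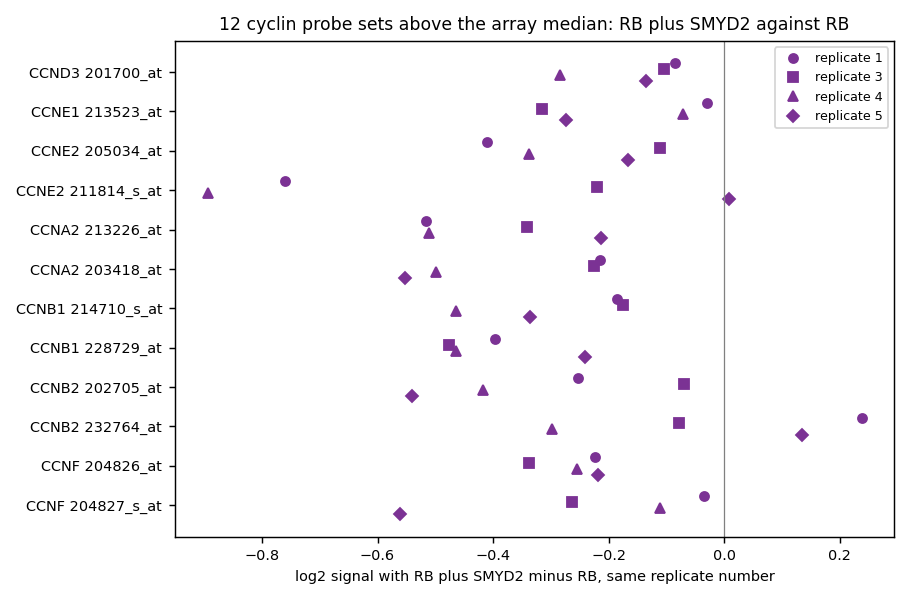
Log2 signal with RB plus SMYD2 minus RB within each replicate number (1 symbol each) for the 12 cyclin probe sets above the array median. In 10 of the 12 all 4 symbols lie left of 0, the exceptions being the dimmer CCNE2 set and the middle CCNB2 set.

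The interaction, the effect of RB in the presence of SMYD2 less its effect in the absence of SMYD2, was called for 0 of the 22 sets, with 1 probe set of the whole array called. CCNF came closest, at -0.32 ± 0.13 (limma adjusted p = 0.9999). Without SMYD2 array 1 the interaction was -0.34 for CCNB2, -0.34 for CCNA2 and -0.33 for CCNB1 in their brightest sets, against -0.11, -0.17 and 0.004 with it, and none was called. The larger number of calls with RB plus SMYD2 than with RB was not accompanied by a called difference between the 2 effects.

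SMYD2 against control gave no call among the 22 cyclin sets and none on the whole array (0.0% called, 1667 probe sets at an unadjusted p under 0.05). The differences ran from -0.31 to 0.37 on the log2 scale. The lowest were those of the dimmer CCNA2 set (-0.31 ± 0.35), the brighter CCNB1 set (-0.29 ± 0.22) and the brighter CCNA2 set (-0.22 ± 0.15), and the highest that of the middle CCNB2 set (0.37 ± 0.13). All of these moved with the first SMYD2 array. Without it they were 0.14, 0.04, -0.06 and 0.21, and CCNB2's bright set was at 0.02 in place of -0.21. A p that misses the threshold does not show that SMYD2 left the cyclins as they were.

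**Figure D4:**
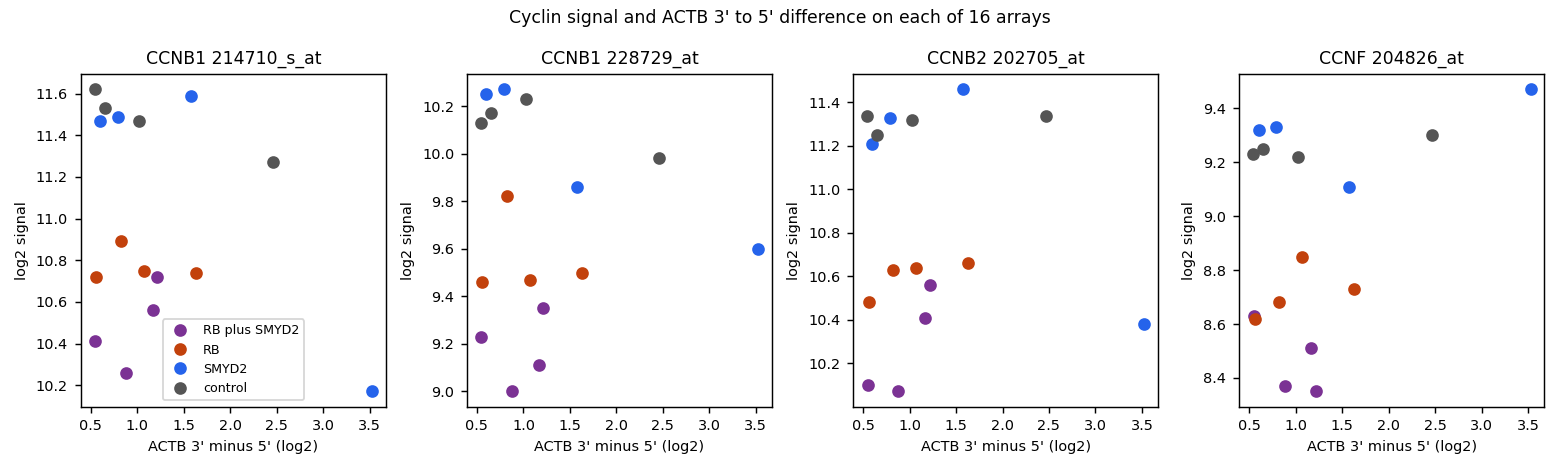
Log2 signal of 4 cyclin probe sets against the 3' minus 5' difference of ACTB on each of 16 arrays, coloured by group. SMYD2 array 1, at 3.53 on the x axis, lies below the other SMYD2 arrays for both CCNB1 sets and CCNB2 and above them for CCNF, and control array 1 is next at 2.46.

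The partners and regulators of the cyclins were counted by the brightest probe set of each gene. Counted in this way, 5.57% of all 19775 genes were called with RB plus SMYD2 against control, 3.43% as lower and 2.14% as higher, and 1.89% with RB against control, 1.27% as lower. The median difference of all genes was 0.02 and 0.01 in these comparisons. Of 14 CDK partners and activators, 9 fell with RB plus SMYD2 against control and 5 did not pass, with a median of -0.68. With RB against control 6 fell. CDC25C, a phosphatase that activates CDK1, fell by 1.13 ± 0.18 with both constructs, CKS1B, a CDK-binding protein, by 0.97 ± 0.09 and CDK1 itself by 0.90 ± 0.23 (limma adjusted p = 0.00114, 7.71e-06 and 0.0339). Only CKS1B of these 3 was called with RB against control, at -0.64 ± 0.09, while CDC25C and CDK1 differed by -0.72 ± 0.18 and -0.60 ± 0.23 (limma adjusted p = 0.00170, 0.0677 and 0.317). CDC25C was called there with the block (limma adjusted p = 0.0205).

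Of 6 measured CDK inhibitors, 1 rose and 1 fell with RB plus SMYD2 against control. CDKN2B, an inhibitor of CDK4 and CDK6, rose by 1.07 ± 0.19, and by 0.85 ± 0.19 with RB alone (limma adjusted p = 0.00236 and 0.0318). CDKN2D, of the same family, fell by 0.53 ± 0.14 with both constructs (limma adjusted p = 0.0397). CDKN1C differed by 0.54 ± 0.24 and did not pass (limma adjusted p = 0.316). Of 14 genes of cyclin degradation 5 fell and 0 rose, led by CDC20, an activator of the anaphase-promoting complex, at -1.13 ± 0.11, FBXO5, its inhibitor, at -1.06 ± 0.13, and its E2 enzyme gene UBE2C at -0.99 ± 0.08 (limma adjusted p = 1.07e-05, 7.53e-05 and 2.60e-06). Their list's median was -0.14, since 9 members did not pass.

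Of 23 regulators of cyclin gene transcription, 8 fell and RB1 rose, with a median of -0.34. FOXM1, a transcription factor of mitotic genes, fell by 1.21 ± 0.11 and the repressor E2F8 by 1.16 ± 0.15 (limma adjusted p = 5.53e-06 and 0.000133). None of 16 other cyclins, which serve mostly in transcription and other processes, was called with RB plus SMYD2 or with RB against control. Their medians were -0.01 and -0.001. Over all genes 5.57% and 1.89% were called in these comparisons, so no call among 16 genes is near the share of all genes. With the block CCNL2, the splicing-linked cyclin L2 gene, was called with RB plus SMYD2 against control, at 0.26 ± 0.08 (limma adjusted p = 0.0800, and 0.0429 with the block). Against SMYD2, CCNL2 rose by 0.35 ± 0.08 with RB plus SMYD2 (limma adjusted p = 0.0143). CCNG2 and CCNY, the others with the largest differences, were at 0.25 ± 0.12 and 0.20 ± 0.13 against control and did not pass (limma adjusted p = 0.370 and 0.549).

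Among 19765 other genes, those most like CCNA2 across the 16 arrays were KIF23, DEPDC1 and DLGAP5 (Pearson r = 0.992, 0.989 and 0.988). For CCNB1 they were PBK, EED and TRMT5 (0.992, 0.974 and 0.972), for CCNE2 APOBEC3B, ORC6 and NUF2 (0.977, 0.976 and 0.974), and for CCNF KIF21B, PIF1 and GCH1 (0.984, 0.978 and 0.974). CCND1 had less close neighbours, SH3BGRL2, ATP6V0E1 and KIAA1217 (0.923, 0.904 and 0.891). These are descriptions over 16 arrays that share group differences and replicate numbers, and for CCNB1 also the low value of SMYD2 array 1.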

How the data were processed

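Each of 16 Affymetrix Human Genome U133 Plus 2.0 arrays measured 1 sample of SAOS cells. The authors deposited log2 signals for 54675 probe sets. The submitters' processing notes name RMA, a method of background correction, quantile normalization and probe summary, without a version. Precision is limited by how many arrays there are. Array medians lay between 5.58 and 5.64, and arrays of 1 group correlated at 0.981 to 0.998. Any 2 arrays of a group had identical values in at most 0.0751% of probe sets, so none was treated as a copy of another. After 62 control probe sets were left out, 54613 were fitted with limma 3.58.1 in R 4.3.3 (1 mean per group over all 16 arrays, eBayes with a trend, two-sided, Benjamini-Hochberg adjustment within each comparison over all 54613). Of the probe sets in the table, 41097 had 1 gene symbol, 1801 several and 11777 none. No filter on low signals was used, and all 22 cyclin sets were tested. There were 7 comparisons, 1 of them the interaction. Members and lists were chosen with earlier results of these data known. The genes named are all members, the 3 of each pathway list with the largest absolute difference in RB plus SMYD2 against control, and the 3 genes most correlated with each of CCNA2, CCNB1, CCNE2, CCND1 and CCNF. Same-numbered arrays correlated in their deviations from the group means at 0.130 or more in every pair of groups other than RB with SMYD2 (in 5 of these 20 cases an array of another number correlated more, at up to 0.411), so the blocked value is given where it changes a call. For that pair the lowest was -0.05. The fit was also tested on simulated data with independent normal noise, which does not carry the correlation between same-numbered arrays. Promoter windows came from RefSeq and held 7 of the 10 genes. Figures were drawn with matplotlib 3.10.9.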

Additional observations from a re-analysis of the deposited data

Results flagged for a closer look

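The 22 cyclin probe sets were searched in each of the 4 groups for an array whose gap to the nearest other array exceeded, as a share of the group's range, Dixon's 95% critical value for 4 samples. Of 88 cases 10 did, and chance alone gives about 1 in 20 for independent, normally spread values. The 88 cases share arrays, and several sets belong to the same gene, so no test is drawn from this rate. In the brighter CCNB1 set SMYD2 array 1 read 10.17 against 11.47 to 11.59 on the other SMYD2 arrays. In the dimmer CCNA2 set RB array 1 read 8.86 against 9.18 to 9.21, and control array 1 read 8.95 against 10.01 to 10.22. RB array 3 was high for both CCNB1 sets, at 10.89 against 10.72 to 10.75 in the brighter and at 9.82 against 9.46 to 9.50 in the dimmer. RB array 4 was low for the dim sets of CCND1, the dimmer of its 2, at 5.18 against 5.43 to 5.47, and of CCND2, 1 of its 4, at 3.88 against 4.17 to 4.23. RB plus SMYD2 array 3 was high for the dimmest CCNB2 set, at 4.68 against 4.38 to 4.40, and for the bright CCND3 set, at 11.13 against 11.09 to 11.10. Control array 3 was high for the brighter CCND1 set, at 5.54 against 5.00 to 5.05.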

How the results depend on the processing

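Across 132 pairs of a cyclin probe set and a comparison, 3168 alternative values were computed. Of these, 62 gained a call, 36 lost one and no called value changed sign. Of the 10 genes, RB against control called 3 by the brightest probe set, and 5 with 2 groups in the fit, with array weights, with the replicate block or without the 4 arrays numbered 1 (added after seeing the data), and 1 to 5 with 1 array left out. RB plus SMYD2 against SMYD2 called 5 genes, 3 with 2 groups in the fit and 3 to 6 with 1 array left out. RB plus SMYD2 against control called 6, and 4 to 7 with 1 array left out. RB against SMYD2 called 1, against 0 with 2 groups in the fit, 2 with the replicate block, 5 with array weights, 5 without the arrays numbered 1 and 1 to 5 with 1 array left out. Over the whole array RB against control called 591 probe sets, 1810 with the replicate block, 2450 with array weights, 1276 without the arrays numbered 1 and 235 to 1197 with 1 array left out. RB plus SMYD2 against SMYD2 called 1918, 4021 with the block, 3471 with array weights, 847 with 2 groups in the fit and 1057 to 2457 with 1 left out. RB plus SMYD2 against control called 1931, 3828 with the block, 4891 with array weights and 1133 to 2923 with 1 left out. RB against SMYD2 called 671, 2365 with the block, 1609 with array weights, 124 with 2 groups in the fit, 1207 without the arrays numbered 1 and 230 to 947 with 1 left out. RB plus SMYD2 against RB called 1 (0 with 1 probe set per gene, 3 with array weights, 1 to 2 with 1 left out), and the interaction 1 (0 with 1 probe set per gene). The cause of these shifts was not tested. Beyond the cyclin calls named above, the replicate block added 1, CCNA2 in RB against SMYD2, at -0.49 (limma adjusted p = 0.0423), and removed none. Median centring and a repeated quantile normalization changed no cyclin call. The number of arrays limits the precision, and the dim sets of CCND1, CCND2 and CCNA1 may not stand above background.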
